A study of Mus musculus with 4 samples.

Results

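The expression of 10 genes of the central spindle and midbody was followed in single mouse embryonic stem (ES) cells: Cit, Kif23, Racgap1, Ect2, Anln, Prc1, Kif20a, Kif20b, Kif14 and Kif4. They were chosen by name for their place in cytokinesis, and they are 10 of the 46078 genes in the count tables. The 10 genes had a mean of at least 20 normalized counts per cell over all cells kept, as did 8757 genes in all. Wild-type ES cells growing in 2i, the medium that keeps them naive with inhibitors of MEK and GSK3, were sorted on forward and side scatter through a gate for small cells or were left ungated. The labels name the medium 2i alone, while the study's methods give LIF with 2i in routine ES cell culture, so whether LIF was present here and also differed between the media cannot be told. By the labels, the small gate takes cells that leave mitosis or are in G1. Sorted cells were replated on laminin for 6 h, either in 2i again or in N2B27, the medium that lets them differentiate, and were then picked as single cells for Smart-seq2, which reads whole transcripts. Each of the 4 groups is 1 sample of 24 cells. Where 4 values stand in a row below, they are in group order, which is small then ungated cells in 2i, followed by small then ungated cells in N2B27. Cells of a sample are not replicates, so no p-value is given, and the 95% intervals below cover counting error only, on reads without molecular identifiers.

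Of the 96 cells, 75 were kept, which were 12, 22, 20 and 21 cells in group order. The kept cells held between 1364155 and 4844170 counts on genes. ERCC spike-ins, a fixed amount of foreign RNA added to each well, took a median of 3.47% and 2.45% of counts in small cells (2i and N2B27) and 1.28% and 1.14% in ungated cells. All 6 ES cell markers (Pou5f1, Sox2, Nanog, Zfp42, Esrrb and Utf1) had counts in every group. Col1a1, Col3a1 and Dcn of the fibroblast markers were at 0 in all 4 groups, and the summed fibroblast and primitive endoderm markers had a median of 0 in each, with at most 115 and 533 normalized counts in a single cell. The summed ES cell markers had medians of 4788, 6166, 5792 and 7679 normalized counts. The cells in 2i were on a plate and lane of their own, as were those in N2B27, so the medium and the plate cannot be told apart. The 2 gates of a plate lay on different index rows. The 48 index pair names on each plate were the same 48, so a cell is told by its plate and its pair. Among 2i small cells, 2 stood apart. The cell with the most genes (15712) had spike-ins at 0.0673% of counts, and the cell with the highest spike-in share (40.9%) had 7 counts on the 10 genes together.

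Cytokinesis splits a dividing cell after its chromosomes have parted. Antiparallel microtubules are bundled between the chromosome masses by PRC1, which brings the kinesin KIF4 to their plus ends. Centralspindlin, a complex of the kinesin KIF23 and the GTPase-activating protein RACGAP1, gathers there and recruits ECT2, the exchange factor that switches on RhoA at the equator. Anillin (ANLN) ties the contractile ring to the membrane. KIF20A carries the chromosomal passenger complex to the midzone, KIF20B acts in the late bridge, and KIF14 brings citron kinase (CIT) to the midbody. When the ring has closed, the remnant of the spindle is the midbody, held in an intercellular bridge that the ESCRT machinery later cuts. Transcripts of many such genes are kept low in G1 and made in late S, G2 and mitosis. A promoter motif named the cell cycle genes homology region (CHR), bound by the MuvB core of the DREAM and B-MYB complexes, is known for this, often near a CCAAT box, which NF-Y binds.

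Promoter sequences were therefore read from RefSeq (GRCm38.p6) for the genes. An entry was matched for 9 of 10, Kif20a being the one not matched. The window ran from 250 bases before to 50 bases after the start, and for Ect2 and Prc1, which have 2 starts in the table, the start listed first was taken. The CHR (TTTGAA, on either strand) was in 8 of the 9 windows, against 18.1% of the windows of all 27025 genes in the table and 12.4% of those of the 6439 matched genes with a mean of at least 20. A match within 50 bases on either side of the start, a limit set after the positions were seen, was present in 7 of 9, against 4.92% of all genes. CCAAT, on either strand, was in 6 of 9 against 37.9% of all genes. The variant TTTAAA was in Kif14 alone, against 13.2%. The stretch from 120 bases before to 30 bases after the start is shown for the 9 genes because it holds most of these matches, with whole matches to TTTGAA (or TTCAAA, its complement), TTTAAA and CCAAT (or ATTGG) in capitals, 5′ to 3′ on the strand of the gene:
Cit (chr5:115845536-115845685, + strand): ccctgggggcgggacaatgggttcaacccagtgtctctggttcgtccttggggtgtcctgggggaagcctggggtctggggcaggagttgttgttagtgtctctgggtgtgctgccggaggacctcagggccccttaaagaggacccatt
Kif23 (chr9:61946770-61946919, - strand): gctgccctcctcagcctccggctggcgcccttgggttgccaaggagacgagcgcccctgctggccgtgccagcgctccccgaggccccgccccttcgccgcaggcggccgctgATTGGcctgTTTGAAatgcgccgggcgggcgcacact
Racgap1 (chr15:99651627-99651776, - strand): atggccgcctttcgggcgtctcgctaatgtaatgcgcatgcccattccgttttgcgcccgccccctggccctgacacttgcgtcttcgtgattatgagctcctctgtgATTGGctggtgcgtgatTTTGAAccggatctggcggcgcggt
Ect2 (chr3:27153849-27153998, - strand): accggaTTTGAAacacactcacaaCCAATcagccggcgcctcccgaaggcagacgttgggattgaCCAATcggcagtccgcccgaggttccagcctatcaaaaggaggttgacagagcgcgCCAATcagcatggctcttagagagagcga
Anln (chr9:22389177-22389326, - strand): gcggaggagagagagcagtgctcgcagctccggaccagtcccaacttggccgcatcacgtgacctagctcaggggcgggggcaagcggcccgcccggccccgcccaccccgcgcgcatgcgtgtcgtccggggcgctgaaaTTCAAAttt
Prc1 (chr7:80294331-80294480, + strand): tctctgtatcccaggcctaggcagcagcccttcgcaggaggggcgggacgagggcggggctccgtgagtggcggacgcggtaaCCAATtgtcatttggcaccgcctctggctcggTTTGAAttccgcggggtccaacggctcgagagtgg
Kif20b (chr19:34922238-34922387, + strand): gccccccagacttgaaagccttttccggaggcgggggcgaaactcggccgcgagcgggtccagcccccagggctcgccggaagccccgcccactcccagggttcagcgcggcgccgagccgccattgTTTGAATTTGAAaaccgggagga
Kif14 (chr1:136467728-136467877, + strand): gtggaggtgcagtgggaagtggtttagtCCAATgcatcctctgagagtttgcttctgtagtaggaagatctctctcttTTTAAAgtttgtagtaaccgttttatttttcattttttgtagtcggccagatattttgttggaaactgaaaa
Kif4 (chrX:100625945-100626094, + strand): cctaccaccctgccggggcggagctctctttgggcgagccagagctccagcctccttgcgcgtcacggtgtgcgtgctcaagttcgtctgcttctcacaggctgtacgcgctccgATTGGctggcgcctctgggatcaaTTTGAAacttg
These letters show how close the matches lie to the start. Kif20b held the motif as a direct repeat, from base 8 to base 19 after the start. In Kif23, Racgap1 and Kif4 an inverted CCAAT box stood just before the start and the CHR just after it. In Prc1 the CHR ended on the first transcribed base, with a CCAAT box from base −37. Ect2 had 3 CCAAT boxes and 2 matches to the CHR, from bases −114 and 40, the second outside the stretch shown. Kif14 had its CHR from base −228 and the TTTAAA variant from base −42, counted back from the RefSeq start used. Cit held none of the 3 motifs in its window. The windows of Cit, Kif14 and Kif4 lie wholly inside the annotated genes, which begin at bases 115845278, 136466343 and 100625737. Sequence before these annotated first bases was not read, so whether a CHR lies there was not tested. A match of letters is a description of the sequence, and no binding was measured here.

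**Figure D1:**
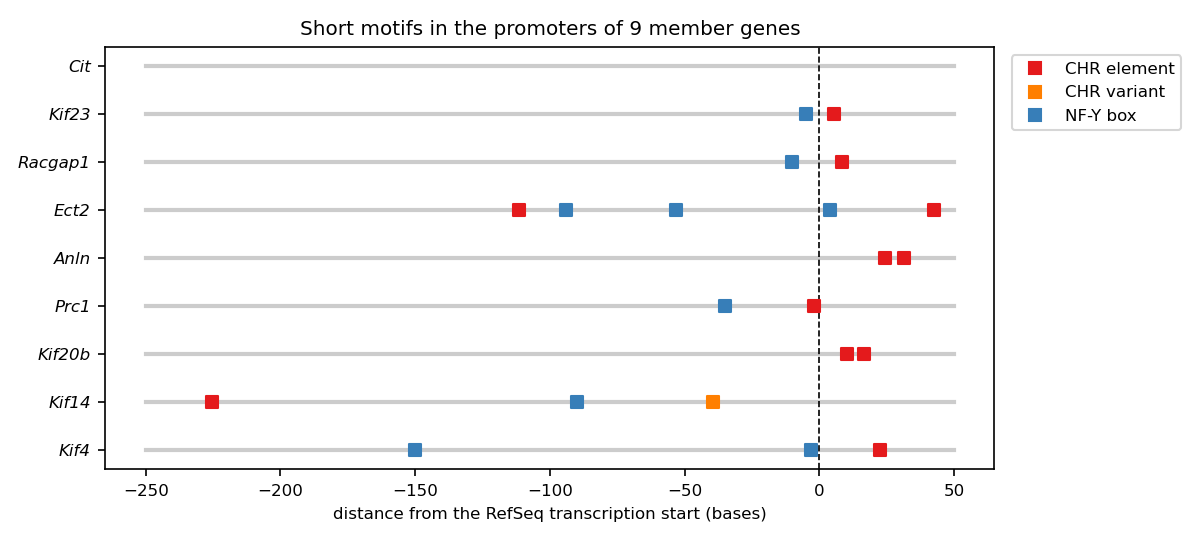
Positions of the CHR, its variant and the CCAAT box (labelled NF-Y box) in the RefSeq promoter windows of 9 genes, in bases from the transcription start (dashed line). The CHR lies within 50 bases of the start in 7 of the 9 genes, Kif14 has it at base −228, and Cit has none of the motifs. For Cit, Kif14 and Kif4 the window lies inside the annotated gene, and sequence before its annotated first base was not read.

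Among other lists of genes, the CHR was in 1 of 2 matched promoters of the chromosomal passenger complex, 4 of 5 of the mitotic kinases and cyclins, 6 of 10 of other spindle proteins, 0 of 10 of RhoA and contractile ring genes, 2 of 10 of bridge scission genes, 3 of 8 of regulators of cell cycle transcription and 1 of 9 of G1/S genes. No promoter was matched for the septins.

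Levels below are counts divided by size factors (the median of ratios to the geometric mean over cells), which are called normalized counts. In most cells a gene was either high or close to none. Over the 750 values of the 10 genes in 75 cells, 22.3% were 0, 19.5% were from 1 to 9 counts and 58.3% were at least 10 counts. For all 8757 genes together these shares were 28.4%, 13.7% and 57.9%. Means over a group therefore rest on the cells in the high state, and for each gene the number of cells with at least 10 counts is given beside the mean. That limit was chosen after the data were seen. In GRCm38 the annotation places Cit at chr5:115845278-116008947, Kif23 at chr9:61915905-61946774, Racgap1 at chr15:99620496-99651656, Ect2 at chr3:27097222-27153878, Anln at chr9:22332012-22389188, Kif20b at chr19:34922361-34975745 and Kif14 at chr1:136466343-136531511, with no other protein-coding gene overlapping these 7.

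Kif20a, which encodes the kinesin that carries the chromosomal passenger complex to the midzone, had a lower mean in small than in ungated cells of both media. Its mean was 76.0 normalized counts in 2i small cells and 478 in 2i ungated cells, and it was 205 and 558 in N2B27. From the lowest to the highest cell it ran from 0 to 357 in 2i small (median 18.9), from 1.38 to 1608 in 2i ungated (median 411), from 0 to 601 in small N2B27 cells (median 133) and from 2.08 to 1265 in ungated N2B27 cells (median 533). Both ungated groups lay higher than both small groups by mean and by median, although single cells overlapped throughout. At least 10 counts were found in 6 of 12, 21 of 22, 12 of 20 and 20 of 21 cells in group order. The raw sums behind these means were 1324 counts (interval 1254 to 1397), 13225 (13001 to 13452), 5379 (5236 to 5525) and 13535 (13308 to 13765). The small-to-ungated difference in N2B27 was −1.44 on the log2 scale and kept its sign in all 13 alternative ways of processing, from −3.28 to −1.02. Kif23 kept its sign in all of these as well, and both did so in all 16 alternatives for 2i. Kif20a (chr18:34624613-34633277) overlaps Cdc23 on the other strand, and its counts in the shared stretch are uncertain, since whether counting used strand is not given in the sources used here.

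Kif23 and Racgap1 encode the parts of centralspindlin. Kif23 had means of 27.9, 265, 136 and 245 normalized counts in group order. Its per-cell median was 0.594 in 2i small and 2.47 in N2B27 small cells, against 200.3 and 218 in ungated cells. Most small cells were thus in the low state, and the mean of the small groups came from few cells. In 2i small cells 2 of 12 cells had at least 10 counts of Kif23, and these 2 held 96.1% of the group's sum of normalized counts. In N2B27 small cells 7 of 20 did, the highest at 1122 and the lowest at 0. In the ungated groups 15 of 22 and 16 of 21 did, with ranges from 0.689 to 1084 and from 0 to 946. The share of cells with at least 10 counts was 35% (exact interval 15.4% to 59.2%) in N2B27 small and 76.2% (52.8% to 91.8%) in N2B27 ungated cells, so that the intervals overlap.

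Racgap1 reached at least 10 counts in more cells than its partner in every group but N2B27 ungated, where both did in 16 of 21. Its mean was 142, 362, 218 and 376 normalized counts in group order. Its median was 43.0, 366, 27 and 379 in the same order. The ungated groups again lay higher, with ranges over cells from 7.80 to 697 in 2i and from 0 to 1144 in N2B27, against 0 to 606 and 0 to 1500 in small cells. Every 2i ungated cell had at least 10 counts (22 of 22), as did 7 of 12, 10 of 20 and 16 of 21 cells of the other groups. In N2B27 small cells a single cell, at 1500, lay far above the next at 540.1. With the highest cell of each group left out, the N2B27 difference between the gates went from −0.78 to −1.16.

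The partners were often but not always high together. In ungated 2i cells 15 of 22 had at least 10 counts of both Kif23 and Racgap1, 7 had Racgap1 alone and none had Kif23 alone. In ungated N2B27 cells 14 of 21 had both, 2 had Kif23 alone and 2 Racgap1 alone. In small cells 2 of 12 (2i) and 4 of 20 (N2B27) had both. The Spearman correlation of the pair over the cells of a group was 0.29 in 2i ungated (22 cells), 0.17 in N2B27 ungated (21 cells) and 0.15 in N2B27 small cells (20 cells), weak in each.

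Ect2, the RhoA exchange factor that centralspindlin recruits, went another way. Its mean was 80.0, 82.0 and 87.8 normalized counts in 2i small, 2i ungated and N2B27 ungated cells, and 223 in N2B27 small cells. Per cell it ranged from 0 to 369 (median 34.6) in 2i small, from 0.689 to 223 (median 73.1) in 2i ungated, from 0 to 1570 (median 37.0) in small N2B27 and from 0 to 247 (median 64.3) in ungated N2B27 cells. The high mean of N2B27 small cells rested on few cells, while their median was below that of both ungated groups. The highest 2 cells, at 1570 and 1182, held 61.6% of the group's sum. At least 10 counts were seen in 13 of 20 N2B27 small and 19 of 21 N2B27 ungated cells. The difference between the gates in N2B27 was 1.34 on the log2 scale for group means and −0.79 for means of log2 values, so its direction depends on how cells are averaged.

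Anln, the scaffold of the contractile ring, had means of 54.0, 136, 173 and 151 normalized counts in group order. Its medians were 1.26, 155, 8.73 and 84.9. The median was thus lower in small than in ungated cells in both media, and the mean was so in 2i. Ranges over cells were 0 to 241, 0 to 305, 0 to 990.3 and 0 to 631. At least 10 counts were found in 4 of 12, 19 of 22, 10 of 20 and 13 of 21 cells.

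Prc1, the bundler of antiparallel microtubules, was among the best detected of the 10. It had a count in 11 of 12, 22 of 22, 18 of 20 and 21 of 21 cells and at least 10 counts in 5, 20, 12 and 19. Its means were 121, 362, 293.5 and 378 normalized counts and its medians 5.65, 281, 169 and 204, in group order. In 2i the small cells were lower by both measures, and in N2B27 the medians lay closer together than in 2i. Ranges over cells were 0 to 602, 0.870 to 1165, 0 to 1295 and 3.20 to 1740. Prc1 (chr7:80294450-80316259) overlaps Rccd1 on the other strand.

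Kif4, the motor that PRC1 brings to the overlap, was rare. A count was found in 5 of 12, 7 of 22, 6 of 20 and 12 of 21 cells, and at least 10 counts in 3, 6, 5 and 5. The share of cells with at least 10 counts was nearly level, between 23.8% and 27.3% in the 4 groups. The means of 15.2, 26.9, 26.2 and 44.9 normalized counts rested on single cells, the highest 2 cells holding 72.3% to 86.1% of each group's sum. Every Kif4-high cell of the ungated groups was also high in Prc1 (6 of 6 in 2i and 5 of 5 in N2B27). Most cells of these groups were high in Prc1, however, at 20 of 22 and 19 of 21. Among Kif4-high small cells, 2 were also high in Prc1 and 1 was not in 2i, and 3 were and 2 were not in N2B27. The pseudogene Kif4-ps had 0 counts in all cells. Kif4 (chrX:100625737-100727214) overlaps Pdzd11 on the other strand.

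Kif20b, a kinesin of the late bridge, did not follow Kif20a by group means. Its means were 249.6, 243, 332 and 196 normalized counts in group order, and its median was 126, 218, 53.6 and 198. Ranges over cells were 0 to 1425, 22.5 to 716, 0 to 1553 and 0 to 588. The medians were lower in small than in ungated cells of both media, as for Kif20a, although the highest values were in small cells. At least 10 counts were found in 6 of 12, 22 of 22, 13 of 20 and 15 of 21 cells. The difference between the gates was 0.04 in 2i and 0.76 in N2B27. When log2 values were averaged over cells, it became −2.51 in 2i and −0.42 in N2B27. In N2B27 it was also below 0 with spike-in size factors (−0.58) and with fixed limits on cells (−0.38), and it kept its sign in 10 of 13 alternatives. Its direction thus depends on how cells are averaged, scaled and kept.

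Kif14, which brings citron kinase to the midbody, had the lowest mean level per length in 3 of the 4 groups. It was seen in 2 of 12 cells of 2i small, with 66 counts in all (interval 51.0 to 84.0), of which a single cell held 98.5%. That cell was the one with the most genes. In 2i ungated cells the mean was 31.6 normalized counts (15 of 22 cells with a count, range 0 to 161) and in N2B27 ungated cells 20 (8 of 21 cells, range 0 to 201). In N2B27 small cells the mean was 108, yet only 4 of 20 cells had at least 10 counts, the highest at 1059 and the next at 474. The median of these cells was 0.887, so the group mean describes a few cells.

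Cit, the citron kinase itself, had means of 25.2, 51.7, 56.5 and 49.1 normalized counts. Its median was 0 in both small groups, 32.2 in 2i ungated and 0.954 in N2B27 ungated cells. Ranges over cells were 0 to 159, 0 to 319.8, 0 to 564 and 0 to 239.6 in group order. The 2i ungated group held Cit in the most cells: at least 10 counts were found in 15 of 22 of them, and in 4 of 12, 7 of 20 and 8 of 21 cells of the other groups. Cit and Kif14 were both at 10 counts or more in 5 of 22 and 2 of 21 ungated cells, with Spearman correlations of −0.09 and 0.24.

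**Figure D2:**
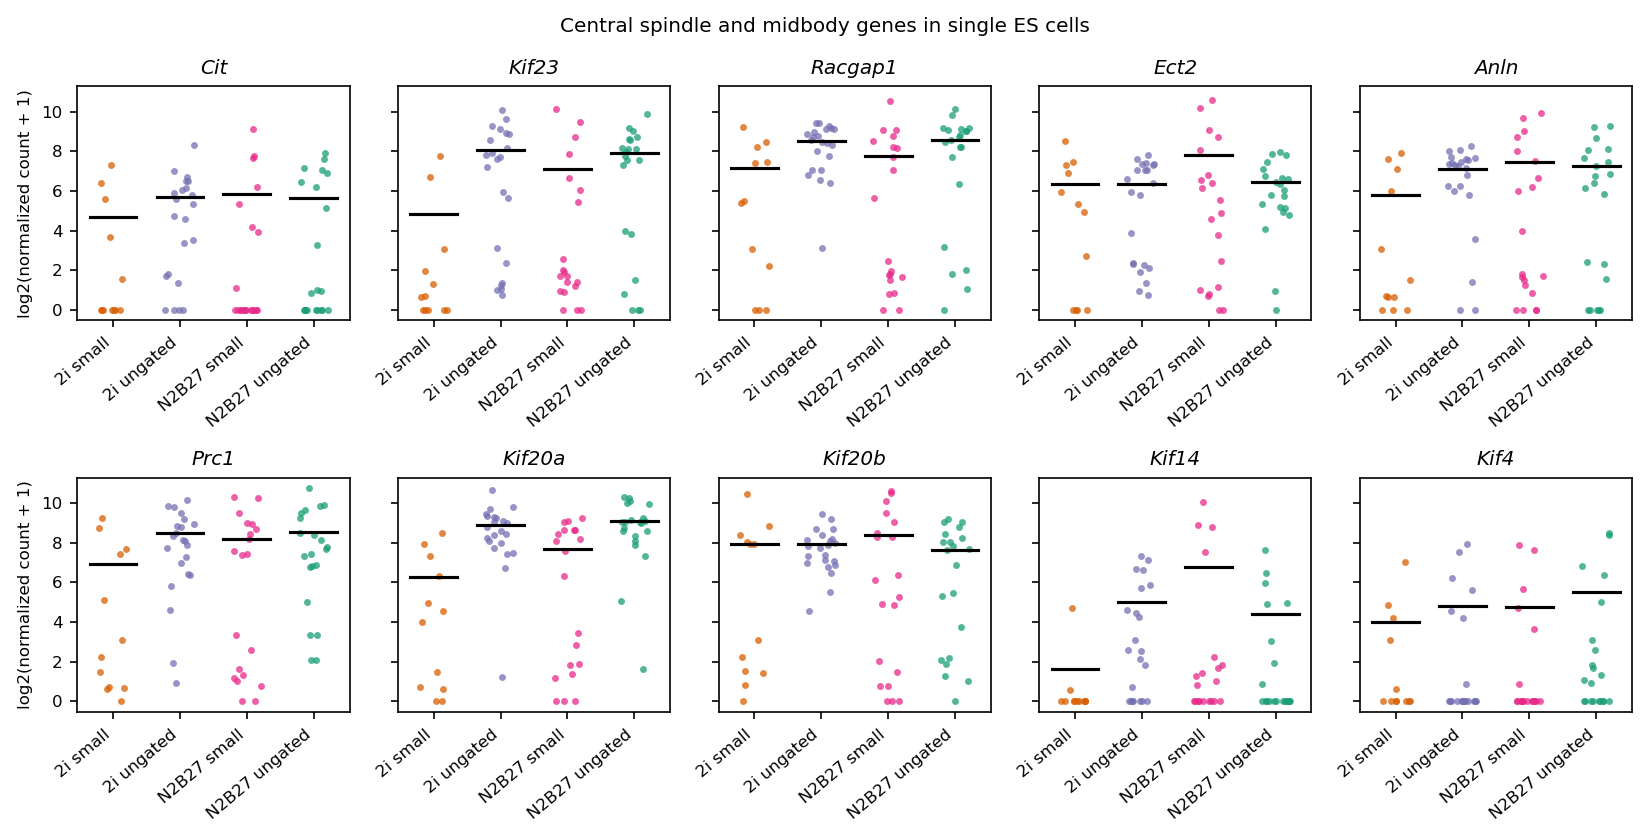
Each point is a cell, the y axis is log2(normalized count + 1), and the bars mark the log2 of the group mean plus 1, for 12, 22, 20 and 21 cells in group order. Most genes show a high and a low state, as for Kif23, whose median is 0.594 and 2.47 in small cells and 200.3 and 218 in ungated cells.

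**Figure D3:**
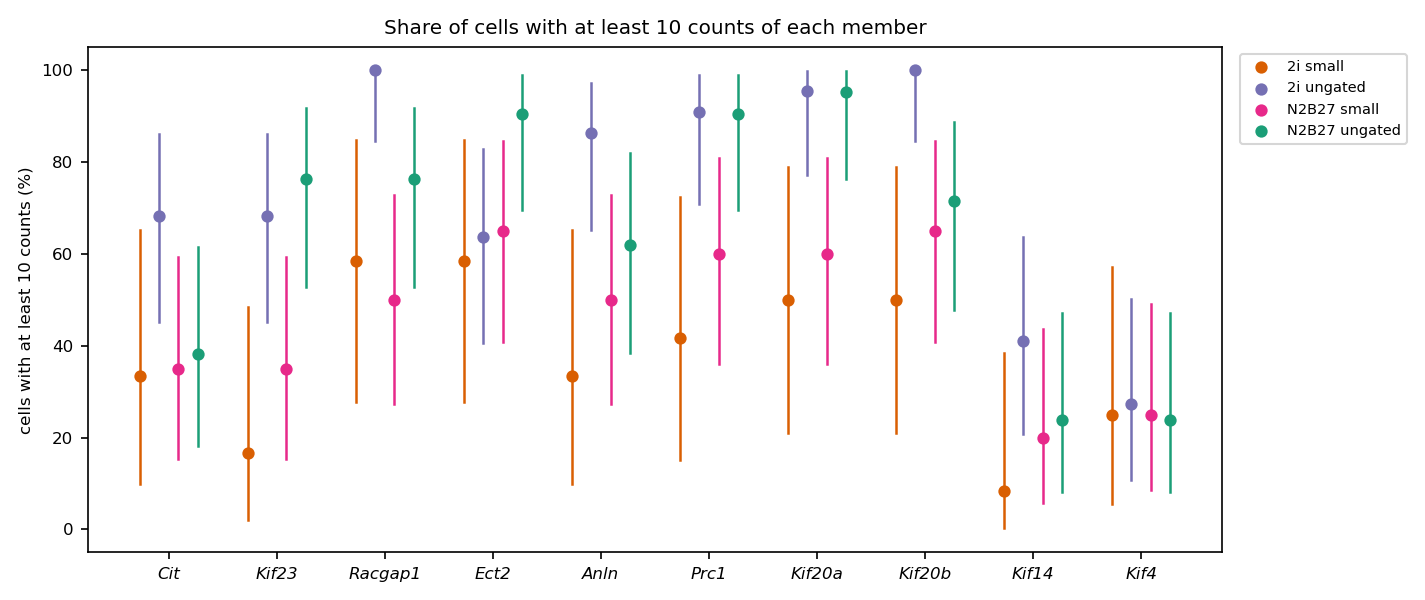
Share of cells with at least 10 counts (%) for each gene and group, with exact 95% binomial intervals that cover counting error only. Both ungated groups lie above both small groups for every gene but Ect2 and Kif4, with overlapping intervals for several genes, and the groups are nearly level for Kif4, at 23.8% to 27.3%.

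Compared per kilobase of exon, Kif20a had the highest mean level in ungated cells, at 110.3 normalized counts per kilobase in 2i and 129 in N2B27. Racgap1 (51.1 and 53.0) and Prc1 (44.0 and 46.0) came next, and Kif23 (33.5 and 31.0) and Kif20b (34.9 and 28.2) followed with values that lie close to each other. Ect2 (15.2 and 16.3) and Anln (14.97 and 16.7) were likewise close. Kif4 (4.88 and 8.14), Cit (3.15 and 2.99) and Kif14 (3.05 and 1.94) were lowest. In small cells the order changed: Kif20b was first, at 35.9 in 2i and 47.7 in N2B27, while Kif20a had 17.5 and 47.3, behind Racgap1 (20.1) as well in 2i and close to Kif20b in N2B27. No spread over samples can be given for these orders, since each group is 1 sample.

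The gates were compared within each medium as the log2 ratio of group means after adding 1, and a gene was counted as lower or higher when the ratio passed 1 in size. In N2B27, 1 of 10 genes (Kif20a) was lower in small cells, where 17.2% of all 8757 genes were, and 2 of 10 (Ect2, 1.34, and Kif14, 2.38) were higher, where 11.9% of all genes were. The other 7 lay within 1, from −0.84 for Kif23 to 0.76 for Kif20b. The median of the 10 was −0.09 beside −0.12 for all genes, so that by group means the set as a whole was not displaced in N2B27. By means of log2 values 4 of 10 were lower, where 42.4% of all genes were, with a median of −0.77 beside −0.76 for all genes. Within cells assigned to S, from 9 small and 4 ungated cells, 4 of 10 were lower (Cit, Kif23, Kif20a and Kif14), where 18.7% of all genes were. In the same cells 5 of 10 (Ect2, Anln, Prc1, Kif20b and Kif4) were higher, where 27.1% of all genes were.

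In 2i, 7 of 10 genes were lower in small cells, where 28.8% of all genes were: Kif14 (−3.39), Kif23 (−3.20), Kif20a (−2.64), Prc1 (−1.57), Racgap1 (−1.34), Anln (−1.31) and Cit (−1.01). None was higher, where 15.4% of all genes were. Ect2 (−0.04), Kif20b (0.04) and Kif4 (−0.79) lay within 1. The median of the 10 was −1.33 beside −0.40 for all genes. The count was 7 without the cell with the most genes and 6 without the cell with the highest spike-in share, Cit lying close to the limit. The 2i small cells with the next highest spike-in shares (17.1%, 16.7% and 11.1%) were not left out in any setting. The count was 4 with no filter on cells, beside 29.4% of all genes, and 3 with pooled counts, beside 21.9%, both nearer to the share of all genes. With no filter another kind of size factor (poscounts) was used as well, since too few genes had a count in every cell. By means of log2 values it was 8, where 60.5% of all genes were lower, and without each gene's highest cell 8, where 45.9% were. Within cells assigned to S, from 4 small and 6 ungated cells, it was 5, where 35.3% were. Scaling by spike-ins gave 0 of 10 with all cells and 9 of 10 without the cell with the most genes, beside 4.44% and 71.4% of all genes. The value on the spike-in scale therefore turned on a single cell, and this combined setting was chosen after the data were seen.

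Between the media, genes passed the limit in small cells and not in ungated cells, and whether these 2 comparisons differ was not tested. In small cells 7 of 10 genes were higher in N2B27 than in 2i, where 23.3% of all genes were: Kif14 (5.13), Kif23 (2.25), Anln (1.66), Ect2 (1.47), Kif20a (1.42), Prc1 (1.27) and Cit (1.14). None was lower, where 18.4% of all genes were, and Kif4 (0.75), Racgap1 (0.61) and Kif20b (0.41) lay between. With spike-in size factors 0 of 10 were higher (1.99% of all genes) and 8 of 10 lower (72.4%), and without the cell with the most genes, a setting chosen after the data were seen, 7 were higher again (31.5%) and 0 lower (6.37%). Fixed limits on cells gave 4 of 10 higher (21.7% of all genes), with Kif23 at −0.032, and Kif23 was at −0.30 with no filter on cells. The values for small cells thus depend on the scaling and on which cells are kept. The setting with no filter changed both at once, since its size factors were of another kind. In ungated cells 0 of 10 were higher and 0 of 10 lower by 1, where 7.61% and 9.89% of all genes were. There the 10 values ran from −0.63 for Kif14 to 0.72 for Kif4, with a median of 0.06 beside −0.03 for all genes. Each comparison of the media uses the same groups as the comparisons of the gates, so the 4 sets of values are not independent of each other.

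**Figure D4:**
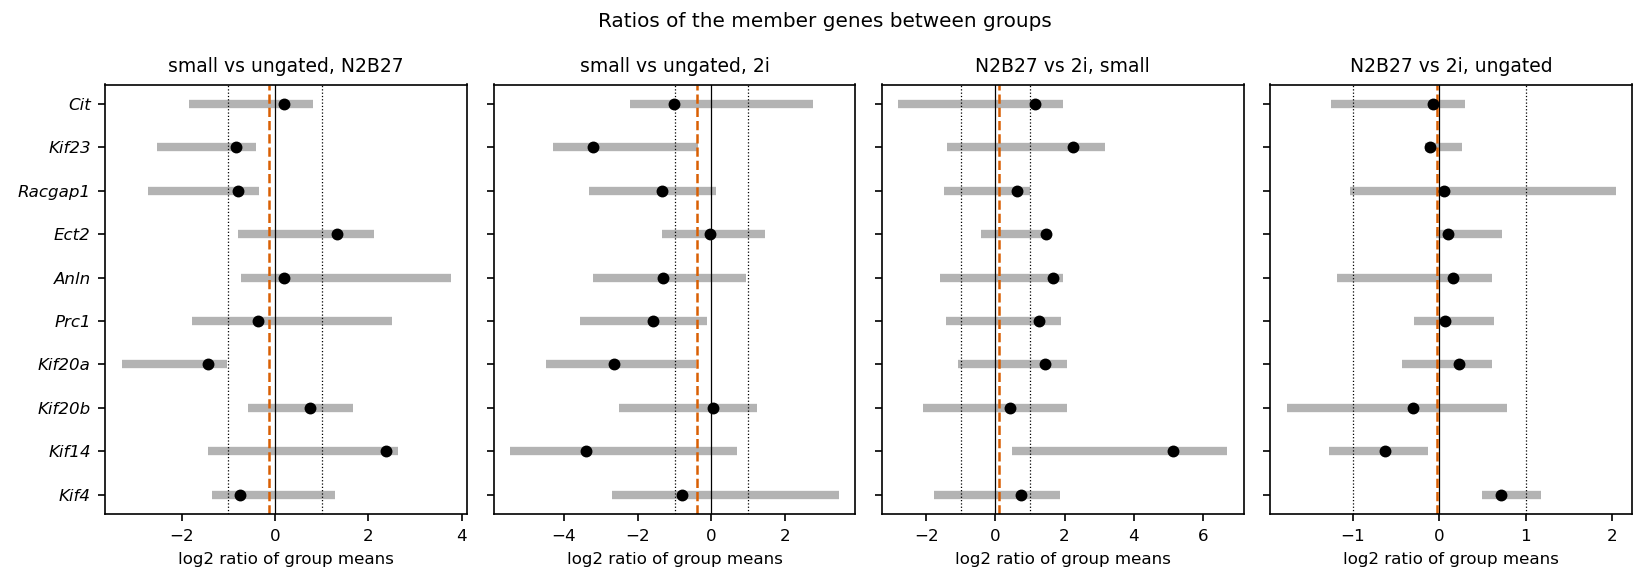
Log2 ratios of group means for the 10 genes in the 4 comparisons (black points). The grey bars span the values under the alternative ways of processing and are not error bars, dotted lines mark −1 and 1, and the dashed line marks the median of all 8757 genes. In 2i, 7 of the 10 points lie below −1, and in the comparison of ungated cells none passes −1 or 1.

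Per cell, the number of the 10 genes with at least 10 counts had a median of 2.5 in 2i small cells (range 0 to 10) against 7.5 in 2i ungated cells (3 to 10), and of 5 in N2B27 small cells (1 to 8) against 6 in N2B27 ungated cells (4 to 9). All 10 genes were at 10 counts or more in the cell with the most genes, a small cell in 2i, and in an ungated cell in 2i. With 1 count as the limit, the medians were 6.5, 9, 7.5 and 8, and with all cells thinned to 1364155 counts they were 5.5, 9, 7 and 8. The small groups were lower than the ungated group of the same plate by each of these measures. The summed level of the 10 genes had a median of 514 (15 to 2755), 1701 (527 to 4329), 1429 (110.3 to 5559) and 1865 (651 to 4706) normalized counts. By index row, the medians were 895 (7 cells) and 256 (5 cells) in 2i small, 1531 and 1708 in 2i ungated (11 cells each), 1560 (11 cells) and 1113 (9 cells) in N2B27 small, and 1676 (11 cells) and 2227 (10 cells) in N2B27 ungated cells. The 2 rows of a group thus differed as well. The spike-in share, which is a sign of the RNA content of a well, was also higher in small cells, and its part in these differences was not tested.

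Cell cycle phases were assigned with the pair method cyclone, after the 883 of its 28492 marker pairs that hold any of the 10 genes were taken out, since 8 of the 10 are among its markers. This put 6 of 12 cells in G1, 4 in S and 2 in G2/M in 2i small, and 0, 6 and 16 of 22 in 2i ungated. In N2B27 small it put 6 of 20 in G1, 9 in S and 5 in G2/M, and in N2B27 ungated 2, 4 and 15 of 21. Phases are themselves read from the expression of other cell cycle genes in the same cells, so the comparison describes how the 10 genes move with those. Over all groups the number of the 10 genes with at least 10 counts had a median of 2 in 14 G1 cells (0 to 7), 6 in 23 S cells (1 to 10) and 7 in 38 G2/M cells (4 to 10). The summed level had a median of 909, 1501 and 1843 normalized counts in the same order. These pooled values mix groups with different shares of phases. Within N2B27 small cells the median sum was 926 in G1, 1696 in S and 1529 in G2/M cells, so that S lay above G2/M there. In ungated cells it was 1203 in S and 2474 in G2/M in 2i, and 1753 and 2028 in N2B27. No cell assigned to G2/M had fewer than 4 of the genes at this level.

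**Figure D5:**
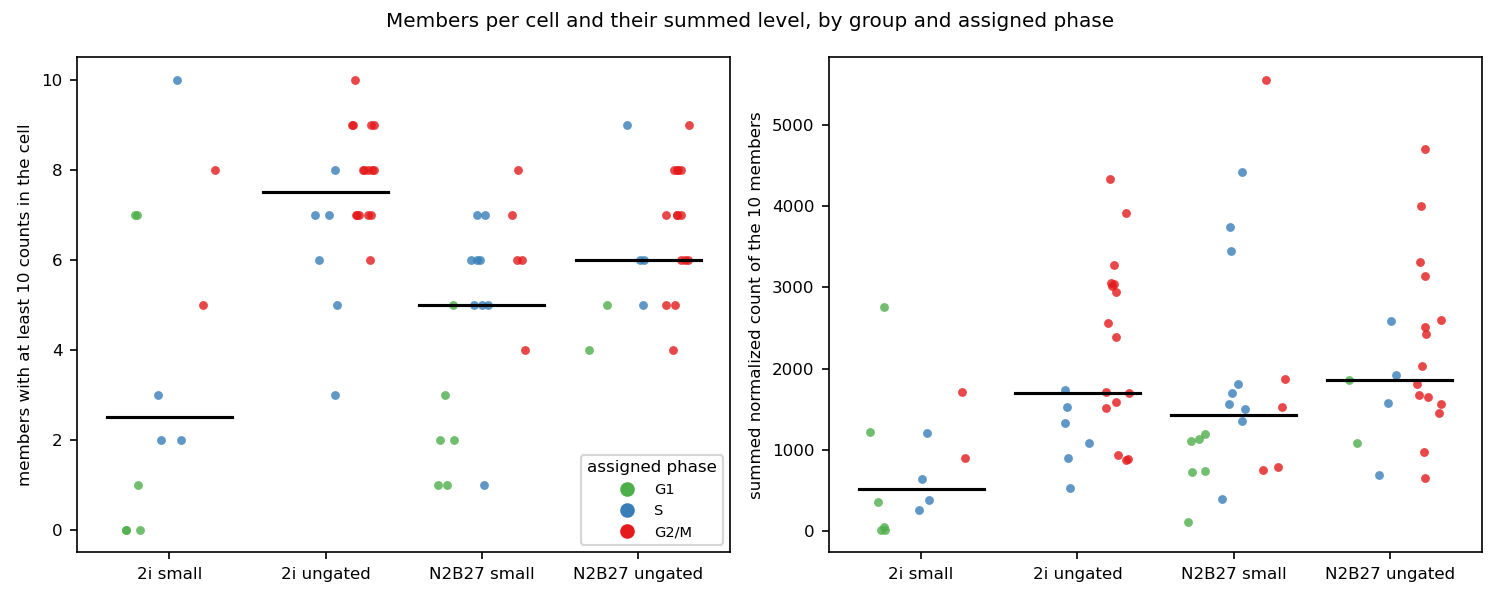
Number of the 10 genes with at least 10 counts (left) and their summed normalized count (right) for each cell, by group and by assigned phase (G1 green, S blue, G2/M red); bars mark group medians. The medians on the left are 2.5, 7.5, 5 and 6, and the G2/M cells lie at 4 to 10.

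Within groups the genes did not move as a block. In 2i ungated cells, 5 of 10 genes were higher in the 16 G2/M cells than in the 6 S cells, where 15% of all genes were: Kif4 (5.06), Cit (3.83), Prc1 (1.38), Kif23 (1.26) and Ect2 (1.21). Racgap1 (0.92), Kif20a (0.86), Kif20b (0.68), Anln (0.24) and Kif14 (−0.01) lay within 1, and none was lower, where 8.43% of all genes were. Cit had a mean of 3.98 normalized counts in S and 69.5 in G2/M cells, and Kif4 of 0.140 and 37.0. In this group both were thus seen mostly in G2/M cells, with at least 10 counts in 2 of 6 and 13 of 16 cells for Cit and in 0 of 6 and 6 of 16 cells for Kif4.

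In N2B27 ungated cells 3 of 10 genes were higher in the 15 G2/M cells than in the 4 S cells, where 30.2% of all genes were: Anln (3.0), Prc1 (2.57) and Kif4 (1.41). Cit (−1.47) and Kif14 (−2.14) went below −1, where 9.7% of all genes did, and Kif23 (0.05), Kif20a (−0.01) and Kif20b (0.10) were near 0. Kif23 was at 185 or more in all 4 S cells, with a highest value of 399. In N2B27 small cells 5 of 10 were higher in the 5 G2/M cells than in the 6 G1 cells, where 36.1% of all genes were: Kif14 (7.36), Kif20a (4.25), Anln (2.50), Racgap1 (2.16) and Kif23 (1.08). Cit (−2.77), Kif4 (−3.24) and Kif20b (−1.75) were lower, where 23.1% of all genes were. Kif20a had a mean of 15.9 normalized counts in G1 and 320 in G2/M, with medians of 3.70 and 350.0. The number of cells behind each phase is small, and a share of 5 in 10 stands beside the 36.1% of all genes.

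Within single groups the 45 pairs of the 10 genes had Spearman correlations with a median of 0.29 in 2i ungated (37 of 45 positive), 0.17 in N2B27 ungated (31 of 45) and 0.14 in N2B27 small cells (30 of 45), over 22, 21 and 20 cells. The cells of a group share plate, lane and scaling, and their depth differed. The highest pair was Cit with Kif23 in 2i ungated (0.64), Kif23 with Kif4 in N2B27 ungated (0.56) and Racgap1 with Anln in N2B27 small cells (0.52). Prc1 with Kif4 reached 0.36 and 0.55 in the ungated groups. Against the mean of the other 9 genes, Racgap1 had 0.43 and 0.58 in the ungated groups and Kif14 0.01 and −0.14, so that Kif14 was the least like the others in both. Cit was most like the others in 2i ungated (0.69) and had 0.02 in N2B27 ungated cells.

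Of 6632 other genes with a mean of at least 20 and a count in at least 50% of cells, the 5 most like the mean of the 10 genes, by the lower of the correlations in the ungated groups, were Ccnb1 (0.64 in 2i and 0.65 in N2B27), Gm12856 (0.66 and 0.64), Ccnb1-ps (0.72 and 0.59), Mapk14 (0.58 and 0.65) and Tubb4b (0.67 and 0.57). Ccnb1 encodes cyclin B1, the cyclin of the mitotic kinase CDK1, and Tubb4b a beta-tubulin. Ccnb1-ps is a processed pseudogene of Ccnb1, so reads of the pair may not be told apart and their values are uncertain. Gm12856 is annotated as a processed pseudogene too. Ccnb1 had means of 536, 1400, 622 and 1145 normalized counts in group order, lower in both small groups. Mapk14, which encodes the kinase p38 alpha, had 59.7, 62.5, 157 and 73.8, the pattern of group means seen for Ect2.

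Partners of the 10 genes were examined in lists of the same pathway. For every list below, the counts stand beside the same shares of all 8757 genes. In small N2B27 cells 17.2% of all genes were lower by 1 and 11.9% higher. In small 2i cells 28.8% were lower and 15.4% higher. The chromosomal passenger complex (Aurkb, Incenp, Birc5 and Cdca8), the cargo of KIF20A, had 2 of 4 genes lower by 1 in small N2B27 cells and 3 of 4 in small 2i cells, with medians of −0.72 and −1.72. Incenp, its scaffold, had means of 66.7, 307, 116 and 284 normalized counts in group order. Birc5 (survivin) had 954, 768, 369 and 773, where the first is 372 without the cell with the highest spike-in share. The mitotic kinases and cyclins had 2 of 6 lower in N2B27 and 6 of 6 lower in 2i, with medians of −0.71 and −1.80. Plk1, the kinase that recruits ECT2 to centralspindlin, had means of 102, 558, 328 and 716 in group order, and the cyclin Ccnb2 209, 625, 374 and 915. The medians of these 2 lists in N2B27 lay below that of the 10 genes (−0.09) and of all genes (−0.12).

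Of 12 other spindle proteins, 1 was lower and 2 higher in small N2B27 cells (median −0.25) and 4 lower and 1 higher in small 2i cells (median −0.49). Kif15, a kinesin of the bipolar spindle, had means of 115, 127, 28.0 and 87.4 normalized counts in group order, and Clasp1, a plus-end protein, 19.0, 31.2, 67.2 and 28.6. Without its highest cell, the N2B27 small mean of Clasp1 is 34.7. The RhoA and contractile ring genes, which act downstream of ECT2, had 2 lower and 1 higher of 12 in N2B27 (median −0.25) and 1 lower and 5 higher of 12 in 2i (median 0.81). Diaph2, a formin, had means of 17.3, 8.33, 58.2 and 11.3, and the kinase Rock1 156, 99.8, 35.1 and 114. Diaph2 reached the mean of 20 only through small N2B27 cells (11.4 over the other cells), so its place as the 1 higher gene was set by that limit, and without its highest cell its mean there is 22.8. Diaph3 and Rock2, both among the 5 higher in 2i, likewise reached it only through 2i small cells (16.7 and 19.0 over the other cells). The 5 septins, filament proteins that ANLN binds, had 1 lower and 1 higher in N2B27 (median 0.25) and 0 lower and 3 higher in 2i (median 1.15). Sept11 had means of 4211, 286, 127 and 322, where the first is 540.4 without the cell with the highest spike-in share, and Sept6 103, 37.3, 28.0 and 11.3. Without the highest cell, Sept6 had 0.607 in 2i small and 0.176 in N2B27 small cells, so each of these means was that of a single cell.

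The bridge scission genes, which act after the midbody has formed, had 9 of 11 members with a mean of at least 20. Of these 1 was lower in N2B27 (median −0.16) and 1 in 2i (median −0.38), and none was higher. Vps4a, an ATPase of the ESCRT machinery, had means of 69.6, 103.6, 39.4 and 81.1 normalized counts, and Ist1, an ESCRT-III protein, 552, 293, 459 and 242. Of 10 measured regulators of cell cycle transcription, 4 were lower and 1 higher in N2B27 (median −0.32) and 2 lower and 1 higher in 2i (median 0.01). Rbl2, which encodes the p130 protein of DREAM, had means of 13.5, 9.20, 56.4 and 12.6, and E2f4, its partner, 172, 285, 126 and 427. Rbl2, the 1 gene higher in N2B27, reached the mean of 20 only through small N2B27 cells (11.4 over the other cells), where its mean is 2.75 without the highest cell. Rbl1, which encodes p107 and was 1 of the 2 lower in 2i, reached it only through 2i ungated cells (14.2 over the other cells). Lin54, of the same list, did so too (19.6 over the other cells). Both Rbl1 (−1.21) and Lin54 (−1.57) were among the 4 lower in N2B27. The 12 G1/S genes had 1 lower and 0 higher in N2B27 (median −0.51) and 4 lower and 2 higher in 2i (median −0.52). Ccnd1, cyclin D1, had means of 212, 358, 88.3 and 303, and Ccne2, cyclin E2, 69.3, 13.4, 28.8 and 14.2, all in group order. Ccne2, 1 of the 2 higher in 2i, reached the mean of 20 only through 2i small cells (18.6 over the other cells), where its mean is 7.43 without the highest cell. The mean of Ccnd1 in N2B27 small cells is 34.9 without the highest cell. Of the other genes named from these lists, leaving out the highest cell took the 2i small mean to 35.7 for Incenp, 46.6 for Plk1 and 31.8 for Vps4a, and the N2B27 small mean of Incenp to 56.7.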

How the data were processed

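Smart-seq2 libraries of single mouse ES cells were analysed in 4 samples, each with 24 cells. The authors aligned trimmed reads to GRCm38 (mm10) with GSNAP, used Ensembl release 81 genes and counted with HTSeq. The submitters' processing notes also name Trim Galore 0.4.4 and DESeq2. The deposited values are raw counts per gene and cell, not normalized. Rows that name no gene held 27.6% of counts and were left out. Whether counting used strand is not given in the sources used here. Columns were tied to samples through the authors' list of runs.

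Cells were removed with scater 1.30.1 by limits of 3 median absolute deviations from their plate's median. The limits were lower ones for counts and genes, on the log scale, and an upper one for mitochondrial share. No upper limit was set on counts or genes. Limits were 307960 counts, 4435 genes and 5.16% mitochondrial counts on the 2i plate and 1250614, 5316 and 4.67% on that of N2B27. No doublet caller was run on cells picked singly. Median-ratio size factors used 1227 genes with a count in every kept cell. Group means plus a pseudocount of 1 were compared on the log2 scale, and the script was tested on simulated data. Phases came from cyclone (scran 1.30.0), or from Seurat 5.3.0 as an alternative. Other steps used R 4.3.3 with DESeq2 1.42.0 for the main and the poscounts size factors, Python 3.11.15, pandas 2.3.3 and scipy 1.17.1. Intervals are 95% exact Poisson or Clopper-Pearson. Positions are from GENCODE M21 and promoters from RefSeq, GRCm38.p6, with chromosome 18 left out of the matching and of the shares. The alternatives tried were other cell filters (none, or 100000 counts and 4000 genes), CPM, scran, poscounts and spike-in size factors, pooled counts, means of log2 values, pseudocounts of 0.5 and 5, thinning, S cells only and single cells left out. With no filter, poscounts size factors were used as well.

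The 10 genes, the lists and the limits were chosen with earlier results of these data known. Named beside the 10 genes are, of each list, the 2 with the largest absolute log2 ratio between small and ungated N2B27 cells among genes with a mean of at least 20, and the 5 genes most like the mean of the 10. List genes that reached the mean of 20 only through 1 group are named as well. With 1 sample per group no test was run.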

Additional observations from a re-analysis of the deposited data

Results flagged for a closer look

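Some of the 10 genes had differences of opposite sign in groups that share a contrast. Each group is 1 sample, so none of these differences was tested. For the medium (N2B27 against 2i), the small-cell value less the ungated value was 1.21 for Cit (1.14 and −0.07), 2.37 for Kif23 (2.25 and −0.11), 0.71 for Kif20b (0.41 and −0.30) and 5.76 for Kif14 (5.13 and −0.63), on the log2 scale.

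For the gate (small against ungated), the 2i value less the N2B27 value was −1.21 for Cit (−1.01 and 0.20), −1.37 for Ect2 (−0.04 and 1.34), −1.51 for Anln (−1.31 and 0.19) and −5.76 for Kif14 (−3.39 and 2.38). Kif14 had 66 counts in all in the 12 small cells in 2i.

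The 21 cells left out by the filter held 14000 counts of the 10 genes among 13897673 counts on genes. Of these counts 6821 were in 12 small cells in 2i and 6934 in 4 small cells in N2B27, with 54 in 2 ungated cells in 2i and 191 in 3 ungated cells in N2B27.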

How the results depend on the processing

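No paired analysis was possible because each group is 1 sample and the result comes from no test. Brackets give the share of all genes past the same limit. Of the 10 genes, the number lower in small N2B27 cells was 1 (17.2%). It became 2 with no filter on cells (21.8%) or fixed limits (22.1%) and 6 with spike-in size factors (39.2%). It became 4 with means of log2 values (42.4%) or S cells only (18.7%), and 3 without each gene's highest cell (25.8%). In 2i the number was 7 (28.8%), and it became 4 with no filter (29.4%) or fixed limits (27.1%). With poscounts size factors (19.97%) or pooled counts (21.9%) it became 3, and with spike-ins 0 (4.44%). Among small cells, 7 were higher in N2B27 (23.3%), which became 4 with fixed limits (21.7%) and 0 with spike-ins (1.99%). The number lower was 0 (18.4%) and became 8 with spike-ins (72.4%). With spike-ins but without the cell of 15712 genes, these returned to 7 (31.5%) and 0 (6.37%). Among ungated cells, the number higher was 0 (7.61%) and became 1 with no filter (13.4%), fixed limits (13.9%) or poscounts (17.9%). The number lower was 0 (9.89%) and became 5 with means of log2 values (37.2%) and 1 without the highest cell (15.2%). Spike-ins moved the median of all genes to −0.82 (gates, N2B27), 0.77 (gates, 2i), −1.55 (media, small) and 0.05 (media, ungated).

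Reversed single values were, for the gates in N2B27, Ect2 at −0.79 (means of log2 values) and Kif14 at −1.43 (S cells). For the gates in 2i they were Cit at 1.65 (spike-ins) and 2.75 (S cells), Racgap1 at 0.11, Anln at 0.94 and Kif14 at 0.68 (spike-ins). For the media in small cells they were Kif23 at −0.30 (no filter) and −0.032 (fixed limits), and with spike-ins Cit at −2.81, Kif23 at −1.41, Ect2 at −0.42, Anln at −1.61, Prc1 at −1.44 and Kif20a at −1.10. Apart from the single cell named for the spike-ins, the cause was not tested. The counts of genes higher in G2/M, of cells with a count and of genes detected per cell moved by at most 1.5 times or the spread between cells under their alternatives. In N2B27 ungated cells the number higher in G2/M than in S went from 3 to 2 with Seurat phases. Of 580 values of single genes under the alternatives, 341 moved by more than counting error with the same sign or without having passed 1.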
